A study of Mus musculus with 10 samples.

Results

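This comparison set the kidney cortex 4 days after acute injury against an uninjured cortex, cell barcode by cell barcode. It used 1 Drop-seq library on each side, and every barcode with at least 500 detected genes and at most 50% of its counts from the mitochondrial genome. These were 6417 barcodes of the day 4 library and 6134 of the control library, 12551 of the 52797 barcodes that pass the same limits in all 10 libraries of the series. Drop-seq captures single cells with barcoded beads in droplets and counts the 3′ ends of their transcripts by unique molecular identifiers (UMIs). The whole series followed mouse kidneys over 14 days, and its title asks whether injury brings back developmental genes and blurs cell lineages. All libraries came from mice labelled 4 weeks of age, the control from kidneys labelled normal and the other from kidneys labelled injured at time point DAY4. The kind of injury, the strain, the sex and the number of animals are not given in the sources used here. Nothing says how many animals stand behind a library, so there is no test of the condition. Values below are UMI counts, the same counts scaled to a common library or class total (CPM) and ratios of day 4 over control with exact 95% intervals, which cover counting error only.

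The cortex is built mostly of proximal tubule, which reabsorbs filtered salt, glucose, amino acids and protein and runs on fatty acid oxidation. The thick ascending limb, the distal convoluted tubule and the collecting duct with its principal and intercalated cells lie downstream. After acute injury, surviving proximal cells lose part of their transporters, switch on genes such as Havcr1 (KIM-1), divide and send signals to leukocytes, while macrophages gather in the tissue.

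The libraries differed in more than the label. The control held 29446508 UMIs with a median of 2661.5 per barcode, and day 4 held 22076557 with a median of 1735. Counts of all genes named mt- (mitochondrial genome) made up 23.6% of control UMIs and 6.84% of those of day 4. The 50% limit on them removed 611 control barcodes but 3 of day 4. The 13 protein genes of that genome summed to 53041 and 41750 CPM, so most of the difference lay in its other genes. Haemoglobin transcripts stood at 205 CPM in the control and 727 CPM on day 4. The libraries shared 0 barcode sequences. Across the series, the control and both day 11 libraries stood apart from the other 7 by at least 5-fold, with no overlap, in 13 genes that were picked after their values had been seen. BC018473 was at 126.7 CPM in the control, 24.2 and 40.04 CPM on day 11 and at most 3.10 CPM in the other 7 libraries. AA465934 was likewise high in those 3 libraries (46.0 to 79.3 CPM against at most 4.23). Cwc22 ran the other way, at 15.0 CPM in the control and 139.0 on day 4. Ifi202b was at 0.0679 CPM in the control and 162.2 CPM on day 4. The 6 Gm136-numbered gene models of this set, near-identical copies whose counts are uncertain, were at 2.04 to 2.58 CPM in the control and 24.2 to 25.5 CPM on day 4. All 10 libraries had Ddx3y, a Y-linked gene, at 45.0 to 80.6 CPM and Xist at no more than 0.899 CPM. What sets the 3 libraries apart cannot be told apart from the condition here, because day 4 and the control lie on different sides. For that reason the day 14 libraries, which lie on the day 4 side, are given for the 12 tubular genes named in each direction. For most other genes and lists below no day 14 value is given.

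Barcodes were sorted by raw marker UMIs (at least 3 UMIs from at least 2 genes of a marker list), with blood, vascular, stromal and podocyte lists read first, then tubular segments, then a general list of tubular genes. Shares were compared after thinning every barcode to 800 UMIs, which left out 53 control barcodes and 641 of day 4. The proximal share was 61.6% (95% exact binomial interval 60.3 to 62.8) in the control and 43.3% (42.0 to 44.5) on day 4, a ratio of 0.703 (0.668 to 0.739). Without thinning, proximal barcodes were 3760 of 6134 and 3324 of 6417, and their median number of proximal marker UMIs was 40 and 15. The thick ascending limb share was 12.5% and 4.76% (ratio 0.380, 0.330 to 0.437) and the distal convoluted tubule share 3.37% and 0.606% (ratio 0.180, 0.122 to 0.258). Principal cells went from 5.20% to 7.45% (ratio 1.43, 1.24 to 1.66). Intercalated cells had 2.30% and 1.02% (ratio 0.444, 0.322 to 0.606), a ratio that was 0.731 with at most 25% mitochondrial UMIs and turned to 1.24 with at most 10%. Tubular barcodes that passed no segment gate were 1.60% of the control and 12.9% of day 4 (ratio 8.06, 6.52 to 10.1). Of the 392 unthinned day 4 barcodes of this class, 70 lay at the gate's limit, and their median was 1093 UMIs. None of the 8 check markers of that general list was at least 2-fold higher inside the class than outside on day 4.

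Myeloid barcodes, meant to hold monocytes, macrophages and dendritic cells, passed on any 2 of C1qa, C1qb, C1qc, Tyrobp, Fcer1g, Csf1r, Aif1 and Laptm5. Their share was 0.872% (0.654 to 1.14) of the control and 13.2% (12.3 to 14.1) of day 4, a ratio of 15.1 (11.4 to 20.4), from 59 and 981 barcodes before thinning. All 7 check markers kept out of the gate were at least 2-fold higher inside than outside in both libraries. T and NK barcodes were 0.197% and 0.554% (ratio 2.81, 1.41 to 5.99). Endothelial barcodes were 3.93% and 1.54% (ratio 0.392, 0.304 to 0.502), stromal ones 1.35% and 0.952% (ratio 0.706, 0.493 to 1.01, an interval that includes 1). Podocyte barcodes were 1.48% and 0.242%, but the 49 unthinned ones of day 4 had a median of 9078 UMIs and only 4 marker UMIs. The neutrophil gate held 2 control barcodes and 23 of day 4. Several shares moved with the mitochondrial limit. At most 25% mitochondrial UMIs left 3361 control barcodes and a thick ascending limb ratio of 1.004, and at most 10% left 460 and a ratio of 1.57. The proximal ratio at those limits was 0.656 and 1.16, the myeloid ratio 9.60 and 5.39, and the ratio of tubular barcodes with no segment 15.99 and 9.69. The principal ratio was 1.36 and 2.298. The endothelial ratio was 0.2396 and 0.101, the stromal ratio 0.516 and 0.2698, and the T and NK ratio 1.495 and 0.627. At the 10% limit the proximal, thick ascending limb and T and NK ratios turned in direction, as the intercalated one did. With at least 800 genes a barcode the T and NK ratio was 7.17. A smaller share of a class and less recovered marker RNA per cell of that class cannot be told apart in these counts.

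**Figure D1:**
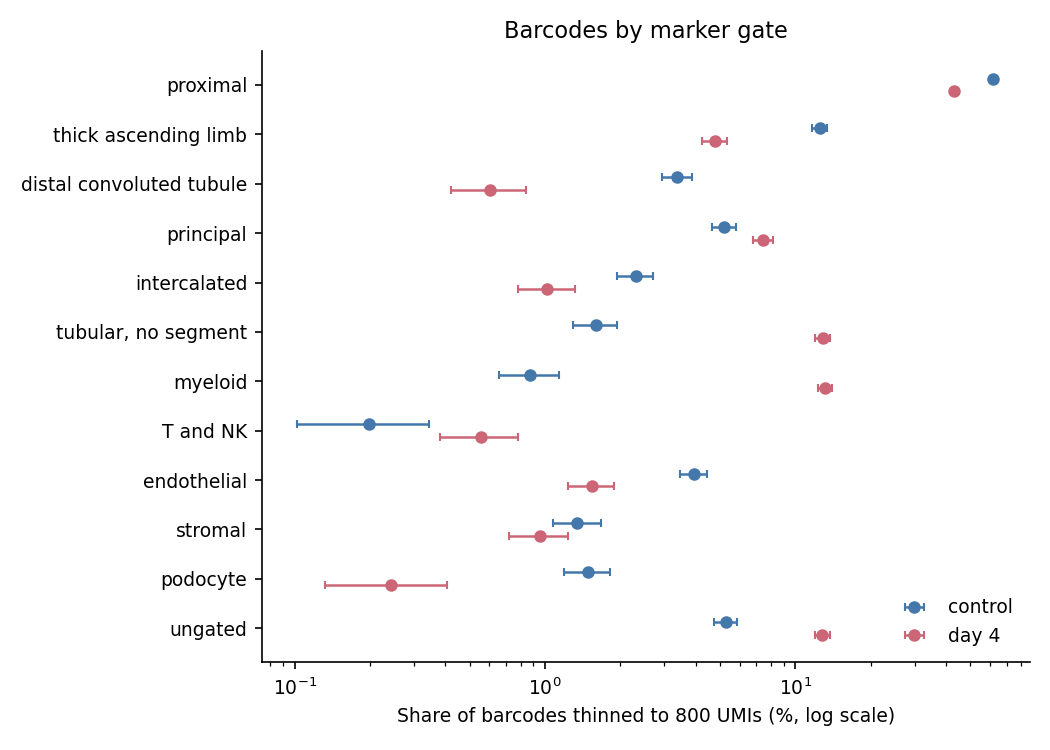
Share of barcodes passing each marker gate after thinning to 800 UMIs (percent, log axis) in the control and on day 4. Points are shares and bars exact 95% binomial intervals, which cover counting error only. The myeloid share is 0.872% and 13.2%, the proximal share 61.6% and 43.3%.

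Some barcodes passed gates of more than 1 lineage. Of thinned barcodes with any segment gate, 4.65% (244 of 5245) of the control and 5.10% (175 of 3432) of day 4 passed 2 or more segments, with overlapping intervals of 4.10 to 5.26 and 4.39 to 5.89. Proximal barcodes that also passed a distal gate were 3.36% and 4.25%. Barcodes that passed a segment and a non-tubular gate were 1.13% (0.871 to 1.44) and 2.61% (2.15 to 3.13). Among thinned barcodes that passed the myeloid gate, 8 of 54 in the control (14.8%, 6.62 to 27.1) and 62 of 765 on day 4 (8.10%, 6.27 to 10.3) also passed the proximal gate. Class sums below use gates on unthinned barcodes. There a larger part of the myeloid and endothelial barcodes also passed a segment gate, and the numbers left without them are given with those classes. Doublets and free RNA can put a barcode in such a class of more than 1 lineage, and their part was not tested.

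All tubular barcodes numbered 5335 in the control (25498459 UMIs) and 4768 on day 4 (17172993 UMIs). Of 14800 genes with at least 20 UMIs over both sums, 4342 (29.3%) were at least 2-fold higher on day 4 and 910 (6.15%) at least 2-fold lower. The interval lay clear of 1 for 4288 and 849 of them. The median gene stood at a log2 ratio of 0.52, and leaving mitochondrial genes out of the totals moves every log2 ratio by −0.30, giving 3074 higher and 1399 lower. A trimmed-mean (TMM) scaling, which centres the bulk of genes, gave 2512 and 1837. For scale, 6.53%, 3.96% and 3.68% of genes passed 2-fold in either direction between the 2 libraries of each of days 7, 11 and 14, against 35.5% here. These shares are without TMM. Each same-day pair lies on the same side of the library split above, unlike day 4 and the control. The sources used here do not say whether a pair comes from different animals.

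Among the 12 genes whose ratio lay farthest from 1 upward were genes of tubular injury and of leukocyte recruitment. Havcr1 (chr11:46735080-46779578, GRCm38, + strand), a phosphatidylserine receptor by which injured proximal cells engulf debris, gave 39 UMIs (1.53 CPM) in the control and 18970 (1105 CPM) on day 4. The ratio was 722 (528 to 1016). Ccl2 (chr11:82035571-82037453), the main monocyte chemokine, gave 0 UMIs in the control and 7929 (461.7 CPM) on day 4, at least 3924-fold higher against a floor of 3 UMIs over the group. Ccl5 (chr11:83525778-83530518), which draws T cells and monocytes, was at 0.549 and 719 CPM (ratio 1310.0, 780 to 2396). Vcam1 (chr3:116109949-116129688), a leukocyte adhesion molecule, was at 0.588 and 371 CPM (ratio 631, 382 to 1128), with an annotated gene, Gm43109, overlapping its exons on the other strand. All of them were at or near 0 in the control and among the well-counted genes of day 4.

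Lcn2 (chr2:32384633-32388252), a siderophore-binding protein used as a urinary injury marker, was at 2.90 CPM in the control and 722 CPM on day 4 (ratio 249, 198 to 317). S100a6 was at 3.61 and 1619 CPM (ratio 449, 366 to 557) and Cd44, the hyaluronan receptor, at 0.353 and 123.5 CPM (ratio 350, 184 to 766). Ubd, a ubiquitin-like modifier, was at 0.745 and 404 CPM (ratio 542, 347 to 902). Cxcl2, a neutrophil chemokine, had 4 and 1756 UMIs (0.157 and 102 CPM, ratio 652, 254 to 2395). The fibrinogen chain Fgg was at 0.275 and 124 CPM (ratio 452, 219 to 1126). Sprr2f, a cornified-envelope gene, had 0 and 1853 UMIs, at least 917-fold higher. Ifi202b also ranked here with 2 and 1748 UMIs (ratio 1298, 359 to 10724), and it is among the 13 genes in which the control and day 11 stand apart from the other 7 libraries. All 12 genes were also at least 2-fold above both day 14 libraries in tubular barcodes, but by less than above the control for several, at the least 12.1-fold for Fgg, 84.0-fold for Lcn2 and 287-fold for Ccl5. Fgb, another fibrinogen chain, is among the 13 genes in which the libraries part.

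Downward, Igha, BC018473 and Igkc lay farthest from 1, with ratios of 0.00295, 0.00445 and 0.0133. Egf (chr3:129677565-129755316), the growth factor made by the thick ascending limb and distal convoluted tubule, came next, at 1796 CPM in the control and 105.5 CPM on day 4 (ratio 0.0588, 0.0560 to 0.0616). Lpl, lipoprotein lipase, was at 1111 and 93.7 CPM (ratio 0.0843, 0.0801 to 0.0887). Angptl7, of the angiopoietin-like family, was at 535.6 and 41.1 CPM and Wfdc15b, a secreted protein of the thick ascending limb, at 1079 and 99.5 CPM. Ckb, brain-type creatine kinase, was at 258.7 and 28.3 CPM, the motor protein gene Myo5a at 150.4 and 16.5, and Inmt, an amine methyltransferase, at 540.1 and 66.2 CPM. Gm20594 and Gm26924, models of no known role, were at 487.3 and 37.2 CPM and at 2856 and 411 CPM. Of the 12, Egf, Angptl7, Gm20594, Lpl, Wfdc15b, Ckb, Myo5a and Inmt were also at least 2-fold below both day 14 libraries, for Egf 801.5 CPM in each. The other 4 were not. BC018473 (118 and 0.524 CPM) belongs to the 13 genes named above, and Gm26924 was at 490.4 and 387 CPM on day 14. The immunoglobulin constant genes Igha (178 and 0.524 CPM) and Igkc (105 and 1.40 CPM), products of plasma cells, were at no more than 1.03 CPM in tubular barcodes of day 14, so that the control stood apart from both days. Egf and Fgg overlap annotated genes on the other strand, and the sources used here do not state how strand was counted.

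**Figure D2:**
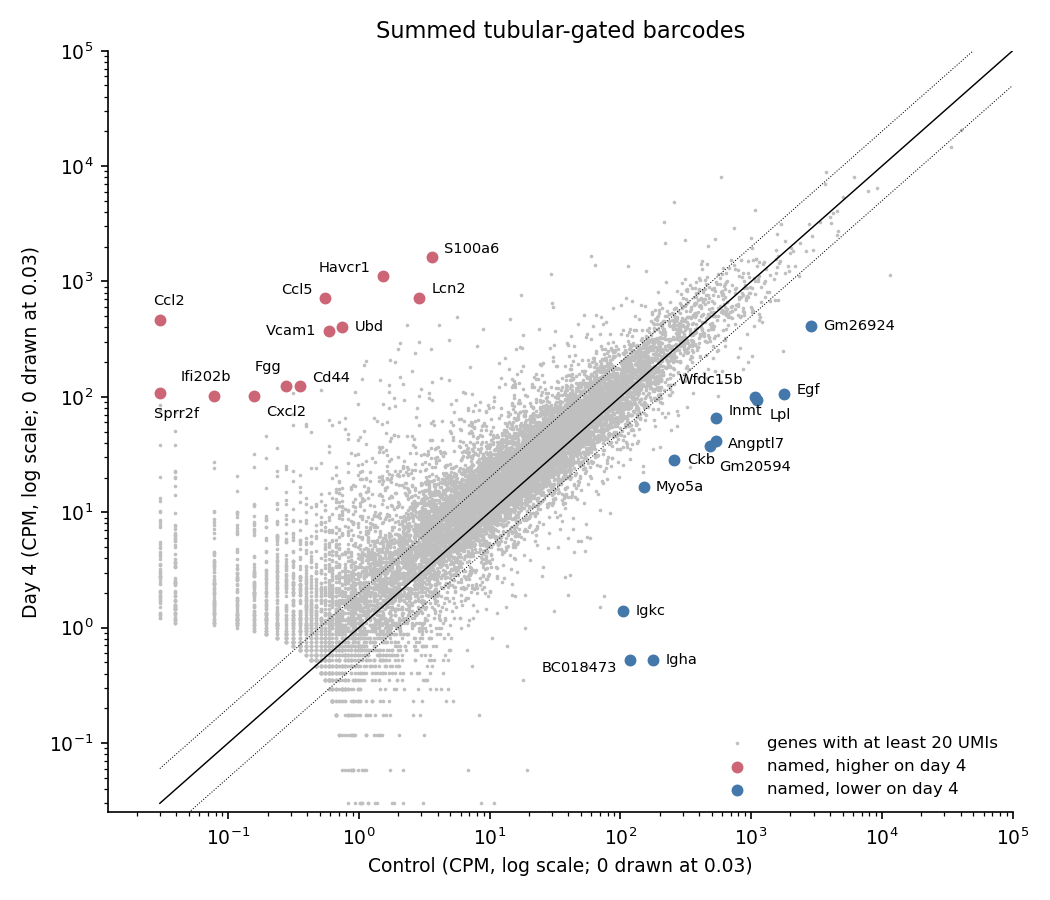
CPM of each gene with at least 20 UMIs in the summed tubular barcodes of the control (x axis) and day 4 (y axis), both on log axes, with 0 drawn at 0.03. The solid line marks equal CPM, the dotted lines 2-fold, and coloured points are the 12 named genes in each direction, from Ccl2 (0 and 461.7 CPM) to Igha (178 and 0.524 CPM).

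The list of injury-induced epithelial genes held 33 members, all with at least 20 UMIs in tubular barcodes. On day 4, 32 of them were at least 2-fold higher and 0 lower, beside 29.3% of all genes, with a median log2 ratio of 5.44 beside 0.52 for all genes. Krt7 was the exception (108.2 and 172.8 CPM, ratio 1.60). The list was drawn up knowing that such genes stand out in these libraries, so its count is a description. Keratin genes of simple epithelia were among them: Krt8 was at 65.4 and 512.4 CPM (ratio 7.84) and Krt20 at 0 and 85.7 CPM. Vim, the filament of mesenchymal cells, was at 2.16 and 129.9 CPM (ratio 60.2), and Anxa3 at 1.10 and 187.7 CPM (ratio 171).

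The injury genes fell into different nephron segments. Havcr1 was at 1438 CPM in proximal barcodes of day 4 and at 117 in the thick ascending limb, 94.6 in the distal convoluted tubule and 122 in principal barcodes. Its level in myeloid barcodes, which should lack it, was 312 CPM, above the 3 distal levels, and the part of free RNA in these levels was not tested. Vcam1 was likewise higher in proximal barcodes (480 CPM) than in the 3 distal gates (at most 60.8) and myeloid barcodes (102), and so was Krt20 (112, at most 10.2 and 32.4 CPM). Lcn2 ran the other way, at 2879 CPM in the thick ascending limb, 1438 in the distal convoluted tubule and 2351 in principal barcodes against 117 in proximal and 300.3 in myeloid ones. In the control Lcn2 stood at 7.36 CPM in the thick ascending limb and 19.6 CPM in principal barcodes. Clu, a secreted chaperone, was at 14827 CPM in principal, 8141 in thick ascending limb and 463 in proximal barcodes on day 4, the last below its myeloid level of 724 CPM. Sprr2f was at 838 CPM in principal barcodes and at 10.9 CPM or less in the other 3 segments named.

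Spp1, osteopontin, was higher on day 4 in the 4 segments given here. Its level was 55.0 and 4899 CPM in proximal barcodes, 1630 and 29355 in the thick ascending limb, 1782 and 14026 in the distal convoluted tubule and 744 and 5293 in principal barcodes. Myeloid barcodes also held 7131 CPM of it on day 4, and the part of free RNA in these levels was not tested. The tubular barcodes with no segment call resembled proximal ones in some of these genes (Havcr1 at 1204 CPM, Vcam1 at 385, Ccl2 at 683) and distal ones in others (Lcn2 at 1080 CPM, Clu at 4790).

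**Figure D3:**
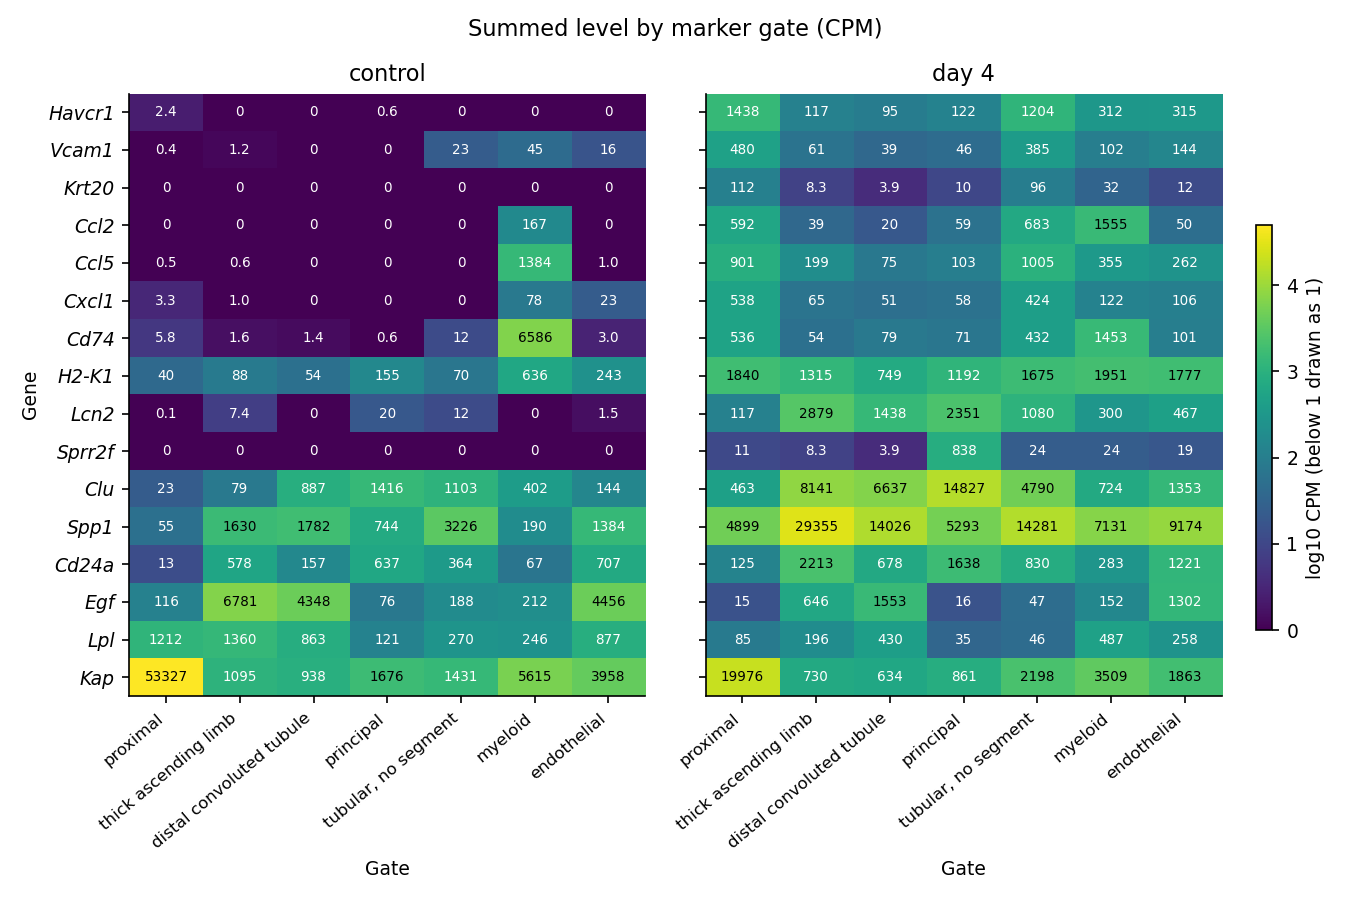
Summed CPM of 16 genes (rows) in the barcodes of 7 gates (columns) in the control and on day 4, written in each cell and coloured by log10 CPM, with values below 1 drawn as 1. Havcr1 reads 1438 in proximal and 122 in principal barcodes of day 4, and Lcn2 reads 117 and 2351.

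Counted per cell, at 800 UMIs each, Havcr1 had at least 1 UMI in 0.107% (0.0291 to 0.273) of 3744 control proximal barcodes and in 39.2% (37.5 to 41.0) of 3076 on day 4. The unthinned shares were 0.904% and 55.4%, at median depths of 2586 and 2008 UMIs. In myeloid barcodes of day 4, with a median of 1565 UMIs, the thinned share was 13.3%. Vcam1 was found in 0.0267% and 22.4% of proximal barcodes, against 6.75% of myeloid ones. Krt20 was found in 0 of 3744 proximal control barcodes, which allows a share of up to 0.0801%, and in 5.36% on day 4, against 1.22% in myeloid barcodes. Clu (31.8% proximal, 30.3% myeloid), Lcn2 (10.5% and 8.85%) and Spp1 (70.7% and 70.0%) were no more frequent in proximal than in myeloid barcodes beyond 2 percentage points.

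Among thinned proximal barcodes of day 4, Vcam1 was found in 37.1% (34.3 to 39.9) of the 1206 with Havcr1 and in 12.9% (11.4 to 14.5) of the 1870 without it. Krt20 was found in 9.62% and 2.62%, and Krt8 in 32.8% and 19.3%. Sox4 was found in 13.5% and 11.7%, with overlapping intervals of 11.6 to 15.6 and 10.3 to 13.3. Spp1 (83.4% and 62.5%), Cd24a (15.8% and 8.56%), Clu (35.2% and 29.6%) and Lcn2 (12.6% and 9.09%) were also more frequent with Havcr1. Of these, Spp1, Clu and Lcn2 were about as frequent in myeloid barcodes as in proximal ones, as given above. The proximal barcodes here come from 1 library, so the shares are counts and no test.

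Tubular barcodes carried more chemokine RNA on day 4. Of 18 chemokine and cytokine genes, 16 had at least 20 UMIs, and 14 were at least 2-fold higher and 0 lower, beside 29.3% and 6.15% of all genes, with a median log2 ratio of 3.97 beside 0.52. Cxcl1, a neutrophil chemokine, was at 2.31 and 416.8 CPM (ratio 180) and Cxcl10, induced by interferons, at 1.69 and 111 CPM (ratio 65.8). Cxcl16 was at 13.2 and 219 CPM (ratio 16.6). The macrophage growth factors Csf1 (2.59 and 38.1 CPM, ratio 14.7) and Il34 (16.2 and 65.3 CPM, ratio 4.02) were higher too. In proximal barcodes all 16 tested members passed 2-fold, beside 37.7% of all genes, with a median of 4.89 beside 0.66.

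Myeloid barcodes held some of these RNAs too. Ccl2 on day 4 was at 1555 CPM in myeloid barcodes and 592 CPM in proximal ones, whereas Ccl5 was at 355 and 901 CPM and Cxcl1 at 122 and 538 CPM. In tubular barcodes the 15 myeloid markers summed to 13.7 CPM in the control and 419 CPM on day 4, 13 of them at least 2-fold higher and none at 0 on either side. The same markers included Lyz2, at 12646 CPM in myeloid and 111 CPM in proximal barcodes of day 4. The part of myeloid RNA in the tubular chemokine levels was not tested.

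The promoters of some of these genes are shown because the chemokine and interferon lists were each higher as groups. From RefSeq on GRCm38.p6, the 250 bases before the start of Cxcl1 (chr5:90890995-90891244, plus strand) and Cxcl2 (chr5:90903649-90903898, plus strand) are printed 5′ to 3′ with matches to the kappa B motif, GGG then any 2 bases then TTTCC, on either strand in capitals, 2 in each. The 250 bases before Ifit1 (chr19:34640639-34640888, plus strand) carry 2 matches to the interferon motif, GAAA then any 2 bases then GAAA, on either strand, in capitals.
Cxcl1: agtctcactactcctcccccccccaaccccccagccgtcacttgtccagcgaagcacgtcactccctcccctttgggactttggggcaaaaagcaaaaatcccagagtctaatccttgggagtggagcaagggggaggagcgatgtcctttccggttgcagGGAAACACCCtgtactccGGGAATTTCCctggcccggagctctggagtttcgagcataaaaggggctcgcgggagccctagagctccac
Cxcl2: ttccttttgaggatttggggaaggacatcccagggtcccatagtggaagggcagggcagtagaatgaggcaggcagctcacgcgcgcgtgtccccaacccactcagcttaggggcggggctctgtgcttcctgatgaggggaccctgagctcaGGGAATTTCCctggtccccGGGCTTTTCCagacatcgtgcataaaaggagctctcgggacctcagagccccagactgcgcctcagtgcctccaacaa
Ifit1: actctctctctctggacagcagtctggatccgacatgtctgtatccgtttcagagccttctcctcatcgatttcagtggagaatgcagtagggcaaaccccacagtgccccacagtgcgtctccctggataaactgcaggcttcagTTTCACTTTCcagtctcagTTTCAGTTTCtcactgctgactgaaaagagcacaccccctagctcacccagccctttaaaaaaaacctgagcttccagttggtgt
The kappa B motif was found in 447 of 27025 genes (1.65%) over the same window and in 4 of the 13 chemokine and cytokine genes with a promoter in the table (Cxcl1, Cxcl2, Csf1 and Il6). The interferon motif was found in 936 genes (3.46%) and in 5 of 9 interferon-stimulated genes (Ifit1, Ifit3, Isg15, Stat2 and Bst2). In the other pairings searched, kappa B was in 2 of 9 MHC class I, 1 of 25 injury and 0 of 9 interferon-stimulated genes. The interferon motif was in 1 of 13 chemokine and cytokine, 1 of 9 MHC class I and 1 of 25 injury genes. A match is a description of the letters and shows no binding.

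MHC genes, which present peptides to T cells, were higher in tubular barcodes as a group. All 11 class I and immunoproteasome genes were at least 2-fold higher, beside 29.3% of all genes, with a median log2 ratio of 4.56 beside 0.52. H2-K1 was at 59.3 and 1678 CPM (ratio 28.3), B2m at 255 and 4870 CPM (ratio 19.1) and the immunoproteasome subunit gene Psmb8 at 7.96 and 277.8 CPM (ratio 34.9). H2-K1 on day 4 was at similar CPM in proximal (1840), thick ascending limb (1315), principal (1192), myeloid (1951) and endothelial (1777) barcodes. All 7 class II genes were higher as well, beside the same 29.3%, with a median of 6.47. Cd74, the invariant chain, was at 4.12 and 416 CPM (ratio 101), H2-Ab1 at 5.61 and 491.8 CPM (ratio 87.7), and Ciita, their master regulator, at 0.235 and 5.82 CPM (ratio 24.8). Cd74 on day 4 was at 536 CPM in proximal, 54.2 in thick ascending limb, 70.6 in principal and 1453 in myeloid barcodes. In the same barcodes Lyz2 was at 111, 65.2, 84.3 and 12646 CPM, and the part of myeloid RNA in the tubular class II levels was not tested.

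All 12 interferon-stimulated genes were at least 2-fold higher in tubular barcodes, beside 29.3% of all genes, with a median of 4.86 beside 0.52. The antiviral Ifit1 was at 0.706 and 60.7 CPM (ratio 86.0) and the transcription factor Irf7 at 0.510 and 113.8 CPM (ratio 223). Of 8 tested complement genes, 7 were higher and 0 lower (median 3.57), beside 29.3% and 6.15% of all genes. C3, the central component, was at 1.73 and 209.7 CPM (ratio 122), Cfi, which cleaves it, at 0.863 and 32.9 CPM, and Cd55, a membrane inhibitor, at 11.4 and 8.27 CPM.

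Of the cell-cycle genes in tubular barcodes, 19 of 19 G2/M genes passed 2-fold upward (median 4.25) and 15 of 18 S-phase genes (median 2.44), beside 29.3% of all genes and their median of 0.52. Mki67, the proliferation antigen, was at 6.04 and 51.6 CPM (ratio 8.54), Top2a, the topoisomerase that untangles chromosomes, at 7.76 and 62.1 CPM (ratio 8.0), and Cdk1, the mitotic kinase, at 0.824 and 26.9 CPM (ratio 32.7). Mki67 was found in 0.214% and 3.90% of thinned proximal barcodes, and in 6.90% and 5.75% of myeloid ones. The part of free RNA in the proximal share was not tested. In principal barcodes 8 of 17 G2/M genes passed 2-fold upward, beside 16.6% of all genes there, with a median of 0.79 beside 0.31. In the thick ascending limb 14 of 14 did, beside 25.8%. In myeloid barcodes 8 of 19 were higher and 3 lower (median −0.35 beside 0.48), beside 36.6% and 11.4% of all genes. The 8 higher ones were the 8 with 0 UMIs in the 59 control barcodes, which count as higher at any day 4 level. The list summed to 1473 and 1315 CPM. In endothelial barcodes 1 of 8 was higher and 0 lower, beside 9.95% and 7.02%.

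Of 16 tested p53 targets and arrest genes, 7 were higher and 0 lower, beside 29.3% and 6.15% of all genes, with a median of 0.73 beside 0.52. Cdkn1a (p21), the cyclin-kinase inhibitor, was at 9.92 and 79.4 CPM (ratio 8.0). Immediate early genes, which answer within minutes to growth factors and also to tissue dissociation, had 9 of 17 higher, beside the same 29.3%, and a median of 1.25. Myc was at 2.55 and 46.1 CPM (ratio 18.1) and Klf6 at 111 and 722 CPM (ratio 6.49), whereas Fos was at 327.7 and 429 CPM (ratio 1.31). Heat shock genes had a median of −0.35, with 1 of 13 higher and 3 lower, the last beside 6.15% of all genes. The mitochondrial chaperone Hspd1 was at 1142 and 461 CPM (ratio 0.404) and Hsph1 at 229.9 and 73.0 CPM (ratio 0.317). Hspb1, a small heat shock protein bound to the cytoskeleton, was the higher one, at 14.3 and 468.9 CPM (ratio 32.8).

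Of 36 listed genes of kidney development, 30 had at least 20 UMIs in tubular barcodes, and 12 were at least 2-fold higher, 3 lower and 15 between, beside 29.3% and 6.15% of all genes, with a median of 0.66 beside 0.52. In proximal barcodes 13 of 26 were higher and 2 lower, beside 37.7% and 5.44%, with a median of 0.84 beside 0.66. Sox9, a transcription factor of nephron progenitors and of repairing tubule, was at 3.84 and 35.2 CPM (ratio 9.17), and in proximal barcodes at 0.442 and 35.8 CPM (ratio 80.8). Sox4 was at 60.5 and 201 CPM (ratio 3.33), Pax8, which specifies the renal lineage, at 26.9 and 84.9 CPM (ratio 3.16), and Cd24a, a surface protein of immature tubule, at 184 and 567.5 CPM (ratio 3.08). Cdh6, a cadherin of the forming proximal tubule, was at 1.14 and 6.46 CPM. Lhx1 (66.0 and 31.0 CPM, ratio 0.469), Irx1 (15.4 and 7.63 CPM) and Itga8 (2.71 and 0.815 CPM) were lower. Pax2 was at 16.2 and 22.8 CPM (ratio 1.40). Osr2 (ratio 2.28) and Wnt4 (12 and 17 UMIs, ratio 2.10, 0.947 to 4.83) had ratios of 0.716 and 0.488 in barcodes with at most 10% mitochondrial UMIs. In thinned proximal barcodes Sox4 was found in 1.12% and 12.4% (myeloid 4.20%) and Sox9 in 0.107% and 3.15% (myeloid 0.553%). Cd24a was found in 1.23% and 11.4%, but also in 10.6% of myeloid barcodes.

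Among growth factor genes, the EGF family split. Areg, amphiregulin, was at 0.196 and 29.5 CPM (ratio 151) and Nrg1 at 1.92 and 17.5 CPM (ratio 9.09), while Egf was lower as given above. Hbegf was at 87.5 and 174.1 CPM (ratio 1.99). Of the receptors, Egfr was at 14.1 and 31.7 CPM (ratio 2.25) and Erbb4 at 44.9 and 13.5 CPM (ratio 0.301). With proximal and no-segment barcodes alone the Erbb4 ratio was 1.01, and in the thick ascending limb alone it was 0.432 (0.362 to 0.512). Of 10 tested members, 6 were higher and 2 lower, beside 29.3% and 6.15% of all genes, with a median of 1.10 beside 0.52.

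Profibrotic ligands and their partners had 11 of 15 higher and 1 lower, beside 29.3% and 6.15% of all genes, with a median of 1.98 beside 0.52. Edn1, endothelin 1, was at 2.196 and 93.4 CPM (ratio 42.5), Pdgfb, a mitogen of fibroblasts and pericytes, at 2.55 and 23.1 CPM (ratio 9.07) and Tgfb2 at 0.902 and 8.15 CPM (ratio 9.04). Timp1, an inhibitor of matrix proteases, had 2 UMIs in the control (0.0784 CPM) and was at 24.3 CPM on day 4. Matrix genes had 17 of 20 higher and 0 lower, beside the same shares, with a median of 2.10. Basement membrane genes were among them, Col4a1 at 41.2 and 174.8 CPM (ratio 4.24) and Col18a1 at 32.5 and 186.9 CPM (ratio 5.74). Sparc was at 7.37 and 105.5 CPM (ratio 14.3) and Fn1, fibronectin, at 0.392 and 10.1 CPM (ratio 25.7). The 16 stromal markers summed to 18.1 CPM in the control and 71.4 CPM on day 4 in tubular barcodes, 10 of them at least 2-fold higher and none at 0, and their part in the matrix count was not tested.

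The proximal tubule's transporters were followed as a list. Of 26 proximal transport genes outside the gate, 7 were higher and 5 lower in tubular barcodes, beside 29.3% and 6.15% of all genes, with a median of 0.24 beside 0.52. In proximal barcodes 6 were higher and 6 lower, beside 37.7% and 5.44%, with a median of −0.01 beside 0.66. The proximal gate itself required UMIs of other transport and metabolic genes, so barcodes below its limit are not in the proximal counts. Slc22a7, an organic anion transporter, was at 118.6 and 2.51 CPM in proximal barcodes (ratio 0.0212, 0.0144 to 0.0302). Slco1a1, another, was at 945.4 and 198.7 CPM in tubular ones (ratio 0.210). Slc13a1, the sodium sulfate cotransporter, ran the other way at 87.8 and 591 CPM (ratio 6.74), as did the glucose transporter Slc5a2 at 75.7 and 217.9 CPM (ratio 2.88) and Slc7a7 at 26.4 and 116.0 CPM (ratio 4.39).

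Fatty acid oxidation had 0 of 23 genes higher and 2 lower in tubular barcodes, beside 29.3% and 6.15% of all genes, with a median of −0.16 beside 0.52. In proximal barcodes 3 were higher and 2 lower, beside 37.7% and 5.44%, with a median of 0.11 beside 0.66. The lower ones in tubular barcodes were Acsm3, a medium-chain acyl-CoA synthetase, at 862 and 174.9 CPM (ratio 0.203) and Acadm, medium-chain acyl-CoA dehydrogenase, at 1055 and 409 CPM (ratio 0.388). Cpt1a, the gate of mitochondrial import, was at 127.7 and 115.6 CPM (ratio 0.905). Gluconeogenesis had 1 of 5 higher and 2 lower in tubular barcodes, beside the same 29.3% and 6.15%. Pck1 was at 625.6 and 312.4 CPM (ratio 0.499), G6pc at 112 and 36.7 CPM (ratio 0.327) and Pck2 at 6.35 and 22.8 CPM (ratio 3.58). Glycolysis had 4 of 16 higher in tubular barcodes (median 0.59), near the 29.3% and the median of 0.52 of all genes. In proximal barcodes 10 of 15 were higher (median 1.2), beside 37.7% and 0.66. Hk2, hexokinase 2, was at 0.235 and 22.7 CPM (ratio 96.5), Ldha at 227.8 and 560 CPM (ratio 2.46), and Pkm in proximal barcodes at 11.9 and 98.7 CPM (ratio 8.31).

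Of the respiratory chain, none of the 25 nuclear-encoded genes passed 2-fold in tubular or proximal barcodes (medians 0.04 and 0.24, below 0.52 and 0.66 for all genes). Of all genes, 29.3% and 37.7% were higher and 6.15% and 5.44% lower there. Of the 13 mitochondrial-genome protein genes, 0 were higher and 1 was lower in tubular barcodes, beside 6.15% of all genes lower. It was mt-Nd6 at 937 and 349 CPM (ratio 0.372), and mt-Nd1 was at 6070 and 8000 CPM (ratio 1.32). In proximal barcodes 0 of the 13 passed 2-fold, whereas in the thick ascending limb 10 were lower (median −1.19), beside 5.16% of all genes there, and in endothelial barcodes 3 were lower, beside 7.02%. In proximal barcodes these 13 summed to 31360 and 44853 CPM, and in the thick ascending limb to 99605 and 47181 CPM. The 50% limit on mitochondrial UMIs removed 611 control barcodes and 3 of day 4 before these sums were made.

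Small-molecule metabolism was uneven. Kap, an androgen-dependent proximal protein, was at 53327 and 19976 CPM in proximal barcodes. Cyp7b1, an oxysterol hydroxylase, was at 75.8 and 2.43 CPM there (ratio 0.0321) and Hpd, of tyrosine breakdown, at 18.1 and 0.349 CPM in tubular barcodes (ratio 0.0193). Kmo and Acmsd of the kynurenine route were at 65.3 and 15.4 CPM and at 117.9 and 28.7 CPM, and Qprt, which feeds NAD synthesis, at 24.8 and 69.3 CPM (ratio 2.79). Both vitamin D hydroxylases were higher, Cyp24a1 at 0.275 and 12.7 CPM (ratio 46.2) and Cyp27b1 at 0.627 and 13.2 CPM (ratio 21.1). Of 18 xenobiotic and steroid genes, 5 were higher and 4 lower (median −0.12), beside 29.3% and 6.15% of all genes. Of 14 amino acid and NAD genes, 2 were higher and 3 lower (median −0.08). Of 13 NRF2, ferritin and metallothionein genes, 6 were higher and 0 lower (median 0.98), with ferritin heavy chain Fth1 at 3766 and 8969 CPM (ratio 2.38). The housekeeping list had 5 of 10 higher, 1 lower and a median of 1.12, above the medians of the NRF2, p53 and developmental lists. For all tubular genes the shares beside these lists were 29.3% and 6.15% and the median 0.52.

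**Figure D4:**
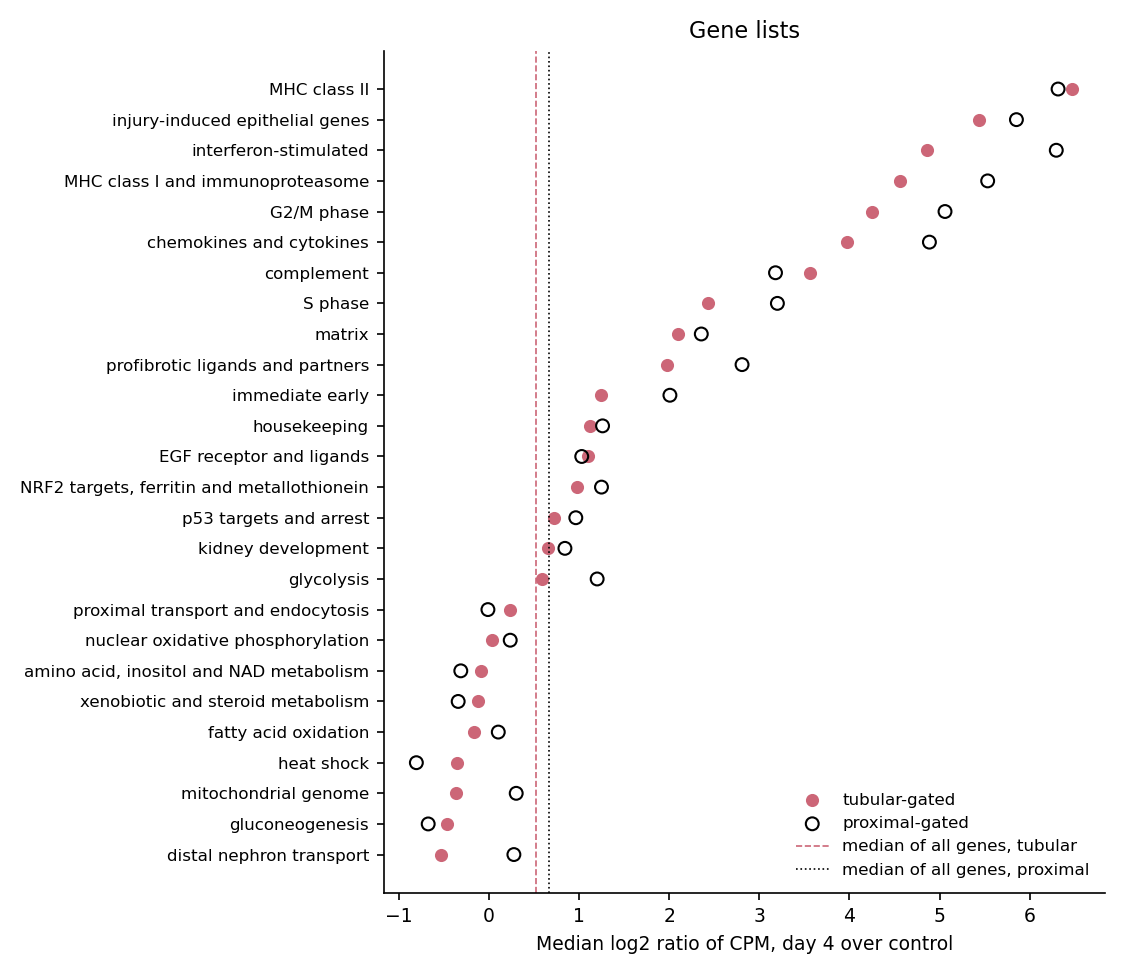
Median log2 ratio of CPM, day 4 over control, of each gene list in tubular (filled) and proximal (open) barcodes, with lines at the medians of all genes (0.52 and 0.66). Immune, injury and cell-cycle lists lie to the right of the lines, from 6.47 for MHC class II in tubular barcodes, and fatty acid oxidation (−0.16 and 0.11) and heat shock (−0.35 and −0.80) lie to the left.

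Proximal barcodes alone gave 13466 genes over 15831334 and 12337136 UMIs, with 5075 (37.7%) higher and 733 (5.44%) lower. Without mitochondrial genes in the totals these were 3972 and 1104, and with TMM scaling 2871 and 1905, where the median gene moved from 0.66 to 0.04. The genes farthest from 1 upward were Ccl2 (0 and 7307 UMIs, at least 3126-fold), Ccl5 (0.505 and 901 CPM, ratio 1784), Vcam1 (0.442 and 480 CPM, ratio 1086), S100a6 (2.78 and 1884 CPM, ratio 678), Krt20 (0 and 1376 UMIs, at least 589-fold) and Havcr1 (2.40 and 1438 CPM, ratio 599, 436 to 847). Downward, beside Igha (172.4 and 0.648 CPM), BC018473 and Slc22a7, were Angptl7 (852.5 and 55.9 CPM, ratio 0.0655), Lpl (1212 and 84.5 CPM, ratio 0.0697) and Myo5a (228.5 and 16.9 CPM, ratio 0.0741). All 33 injury genes passed 2-fold upward, with a median log2 ratio of 5.85.

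Injury genes were also higher in the thick ascending limb, the segment that reabsorbs salt without water. In its 751 control and 389 day 4 barcodes, 11028 genes were tested, of which 25.8% were higher and 5.16% lower. Of 28 tested injury genes, 26 were higher (median 4.67 beside 0.49). In these barcodes the 15 myeloid markers summed to 9.35 CPM in the control, 6 of them at 0, and to 274 CPM on day 4, with 14 at least 2-fold higher. Of 5 erythroid genes the 4 that passed the filter summed to 4.38 and 1440 CPM, and each was higher. The part of either, or of free proximal RNA, in the injury genes' ratios was not tested. Egf was at 6781 and 646 CPM and Lpl at 1360 and 196 CPM. Among the gate's own genes, which are given as description, Slc12a1, the sodium-potassium-chloride cotransporter, was at 8537 and 2136 CPM and Umod, uromodulin, at 6963 and 5611 CPM. In the 54 day 4 distal convoluted tubule barcodes, Egf was at 1553 CPM against 4348 in the control's 316. Of their markers, Pvalb was at 3514 and 1371 CPM, Calb1 at 4515 and 2191 CPM and Slc12a3, the thiazide-sensitive cotransporter, at 1962 and 2325 CPM.

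Principal barcodes numbered 317 and 541, with 10266 genes tested, of which 16.6% were higher and 4.4% lower. Of 31 tested injury genes, 28 were higher (median 3.37 beside 0.31), and of 17 developmental genes 2 were higher and 0 lower (median −0.14). The injury list was also higher in myeloid barcodes (26 of 31, median 1.78 beside 0.48), where 36.6% of all genes were higher. Of its myeloid members, 11 had 0 control UMIs. In endothelial barcodes 20 of 26 were higher (median 2.08 beside 0.15), beside 9.95% of all genes. The part of free RNA in the principal count was not tested. Among the gate's own genes, given as description, Aqp2, the vasopressin-regulated water channel, was at 3409 and 4186 CPM and Aqp3, the basolateral one, at 2317 and 1024 CPM. In these barcodes the 14 T and NK markers summed to 12.5 CPM in the control and 364 CPM on day 4, 8 of them at 0 on day 4.

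Myeloid barcodes held 89589 UMIs in the control and 2250757 on day 4, so this contrast rests on 59 control cells. Of 9393 genes tested, 3439 (36.6%) were counted as higher and 1074 (11.4%) as lower. Of those tested, 1792 had 0 control UMIs and were counted as higher whether or not they reached 2-fold against the floor. The 36.6% given beside myeloid lists includes these genes. The interval lay clear of 1 for only 788 and 493. Spp1 was at 190 and 7131 CPM (ratio 37.6, 23.5 to 64.5) and Ctsd, a lysosomal protease, at 122.8 and 2223 CPM (ratio 18.1, 10.1 to 36.3). Plac8 (821.5 CPM on day 4), a gene of Ly6C-high monocytes, Ccl7 (620 CPM), a monocyte chemokine, Wfdc17 (514 CPM) and Ifi202b (632 CPM) had 0 control UMIs, so that they were at least 24.5-fold, 18.5-fold, 15.3-fold and 18.9-fold higher. Ifi202b belongs to the library set above, by which the control stands apart from day 4. Spp1 was abundant in tubular barcodes too, and its free RNA in myeloid droplets was not tested.

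Myeloid genes of the monocyte and inflammatory list had 9 of 12 higher and 2 lower, and of the resident and repair list 7 of 12 higher and 2 lower (medians 1.36 and 0.82 beside 0.48), where 36.6% of all genes were higher and 11.4% lower. The higher ones include 5 and 4 genes with 0 control UMIs, counted whatever their bound, whereas the medians set 0 to 3 UMIs. Ccr2, the receptor of Ccl2, was at 558 and 1094 CPM (ratio 1.96, 1.48 to 2.65) and Ly6c2 had 2 UMIs in the control and was at 721 CPM on day 4 (ratio 32.3, 8.93 to 267). Arg1 and Gpnmb, genes of repair macrophages, were at 184 and 254 CPM with 0 in the control, and Trem2 was at 44.6 and 178 CPM (ratio 3.99, 1.55 to 14.7). Cx3cr1 (759 and 366 CPM, ratio 0.482) and Mrc1 (502 and 168 CPM, ratio 0.334), both of resident macrophages, were lower, and Apoe was at 6429 and 6620 CPM (ratio 1.03, 0.947 to 1.12).

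Other groups were lower in myeloid barcodes. Of 7 class II genes 5 were lower and 0 higher (median −2.15), beside 11.4% and 36.6% of all genes and their median of 0.48. Among them were Cd74 at 6586 and 1453 CPM (ratio 0.221, 0.202 to 0.241) and H2-Ab1 at 6976 and 1547 CPM (ratio 0.222). Of 17 immediate early genes 11 were lower and 0 higher (median −1.43), beside the same shares, with Fos at 3293 and 1171 CPM and Egr1 at 2132 and 522 CPM. Il1b was at 5916 and 204 CPM (ratio 0.0345, 0.0304 to 0.0391), Tnf at 122.8 and 35.5 CPM, Atf3 at 2266 and 208 CPM and Mmp13 at 748 and 26.2 CPM. Gzma, a granzyme of T and NK cells, was at 647 and 40.9 CPM and Ccl5 at 1384 and 355 CPM. The 14 T and NK markers summed to 1072 CPM in the control's myeloid barcodes and 108 CPM on day 4, with 6 of them at 0 in the control, and their part in the Gzma and Ccl5 ratios was not tested. S100g (4733 and 225 CPM) and Calb1 (692 and 34.7 CPM), calcium-binding proteins of the distal tubule, also ranked among the lower genes. All 12 named genes stayed past 2-fold without the myeloid barcodes that also passed a segment gate, a check added after seeing the data that left 36 and 704. Spp1 then had 1 control UMI (ratio 314, 56.3 to 12389), S100g a ratio of 0.4502 (0.282 to 0.762) and Calb1 of 0.239 (0.0824 to 0.944). Interferon-stimulated genes had 10 of 12 higher, 2 of them at 0 in the control, beside 36.6% of all genes, with Ifi27l2a at 826 and 3258 CPM (ratio 3.94, 3.14 to 5.03).

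Endothelial barcodes numbered 335 and 173. Of 10001 genes, 995 (9.95%) were higher and 702 (7.02%) lower, or 621 and 1071 with TMM scaling, which moved the median gene from 0.15 to −0.08, and 1834 and 1376 with means of per-barcode fractions. All 10 tested class I genes were higher (median 2.0), with H2-K1 at 242.8 and 1777 CPM (ratio 7.32, 6.56 to 8.17), and 9 of 12 interferon genes (median 1.98), with Ifitm3 at 354 and 1435 CPM (ratio 4.06). Of 14 activation and growth genes 5 were higher and 1 lower. Plvap, the diaphragm protein of fenestrated endothelium and itself a gate gene, was at 79.6 and 253 CPM, and Vcam1 at 16.4 and 144 CPM (ratio 8.75, 5.79 to 13.5). The tubular gene Havcr1 was at 315 CPM in the same day 4 barcodes, and the part of tubular RNA in the Vcam1 level was not tested. Kdr, the VEGF receptor used in the gate, was at 382 and 303 CPM. These lists were not recomputed without the endothelial barcodes that also passed a segment gate, and the part of tubular RNA in them was not tested.

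Endothelial barcodes also held tubular RNA. The 9 thick ascending limb markers summed to 16064 CPM in the control's endothelial barcodes and 12718 CPM on day 4, none at 0. Havcr1 (0 and 184 UMIs, at least 211-fold), Lcn2 (1.49 and 467 CPM, 3 control UMIs, ratio 313, 106 to 1526), Ccl5 (2 control UMIs, 262 CPM on day 4), Lyz2 (0 and 64 UMIs, at least 73.3-fold), 2200002D01Rik (4.98 and 145 CPM) and Cd74 (2.99 and 101 CPM) had the ratios farthest above 1. Havcr1 and Lcn2 on day 4 lay below their levels in proximal and thick ascending limb barcodes (1438 and 2879 CPM), and Lyz2 and Cd74 below those in myeloid ones (12646 and 1453 CPM). Lower were Gm20594, AA465934 of the library set above, S100g (1412 and 219 CPM), Calb1, Mndal (357 and 47.9 CPM) and Atp6v1g3, a proton pump subunit of intercalated cells. Mndal (chr1:173849126-173942491) overlaps Ifi203 on the same strand and lies near Ifi202b (chr1:173962568-173982744), a gene of the same library set. Without the endothelial barcodes that passed a segment gate, 210 and 117 were left, with 477 genes higher and 473 lower of 4540. There Havcr1 was at least 23.3-fold and Lcn2 at least 20.9-fold higher, Cd74 had a ratio of 8.05, and S100g (0.662), Calb1 (0.536) and Atp6v1g3 (0.840) were no longer 2-fold lower.

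Over all barcodes, 15808 genes were tested, with 4174 (26.4%) higher and 1235 (7.81%) lower, or 3049 and 1827 without mitochondrial genes in the totals and 2684 and 2160 with TMM scaling. Named upward were Sprr2f (0 and 2417 UMIs, at least 1075-fold), Ccl2 (0.509 and 587 CPM, ratio 1152), Ifi202b (2 control UMIs, ratio 2388, 660.5 to 19722), Havcr1 (ratio 805), Ubd (ratio 547) and Lyz2 (4.07 and 1401 CPM, ratio 344). Ifi202b, like BC018473 among the lower genes, belongs to the library set above. Lyz2 encodes the lysozyme of macrophages, and myeloid barcodes were 59 and 981, whose part in the Lyz2 ratio was not tested. Downward were BC018473, Igha (322 and 20.6 CPM, ratio 0.0640), Egf (1895 and 134 CPM, ratio 0.0707), Igkc (201 and 13.9 CPM), Gm20594 (466 and 34.8 CPM) and Pvalb (302 and 22.3 CPM, ratio 0.0739). Egf was also lower within thick ascending limb barcodes, as given above. Pvalb was lower within distal convoluted tubule barcodes, where it is a gate gene and its level a description.

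The other days of the series show where day 4 stood. In tubular barcodes Havcr1 was at 1115 CPM on day 1, 174.7 on day 2, 1105 on day 4, 979 and 495 on day 7, and between 2.60 and 6.10 on days 11 and 14. Ccl5 was at 25.7, 11.5, 719, 486 and 548 CPM over the same libraries up to day 7, and Ccl2 at 32.1, 43.3, 461.7, 230.6 and 269 CPM. Days 4 and 7 were thus the high ones for these chemokines and for Vcam1, at 38.6 and 44.1 CPM on days 1 and 2, 371 on day 4 and 393 and 273 on day 7. H2-Ab1 was at 61.2 and 75.4 CPM on days 1 and 2, 491.8 on day 4 and 425.6 and 385 on day 7.

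Ifit1 was at 1294 CPM on day 2 and 60.7 on day 4, and the 2 day 14 libraries lay apart at 1.97 and 29.6 CPM. Top2a was at 226 CPM on day 1, 50.9 on day 2, 62.1 on day 4 and 77.3 and 54.3 on day 7. Areg stood alone on day 4, at 29.5 CPM against 3.15 CPM or less in the other 9 libraries. Kap was at 1391 and 3987 CPM on days 1 and 2, 14625 on day 4, 374 and 3840 on day 7 and at least 34122 on days 11 and 14, so the 2 day 7 libraries differed by far more than 2-fold. Egf was at 19.96 and 24.4 CPM on days 1 and 2, 105.5 on day 4, 25.6 and 91.3 on day 7, 422 and 486 on day 11 and 801.5 in both day 14 libraries, against 1796 in the control. These libraries share 1 control, and only days 7, 11 and 14 have a second library.

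**Figure D5:**
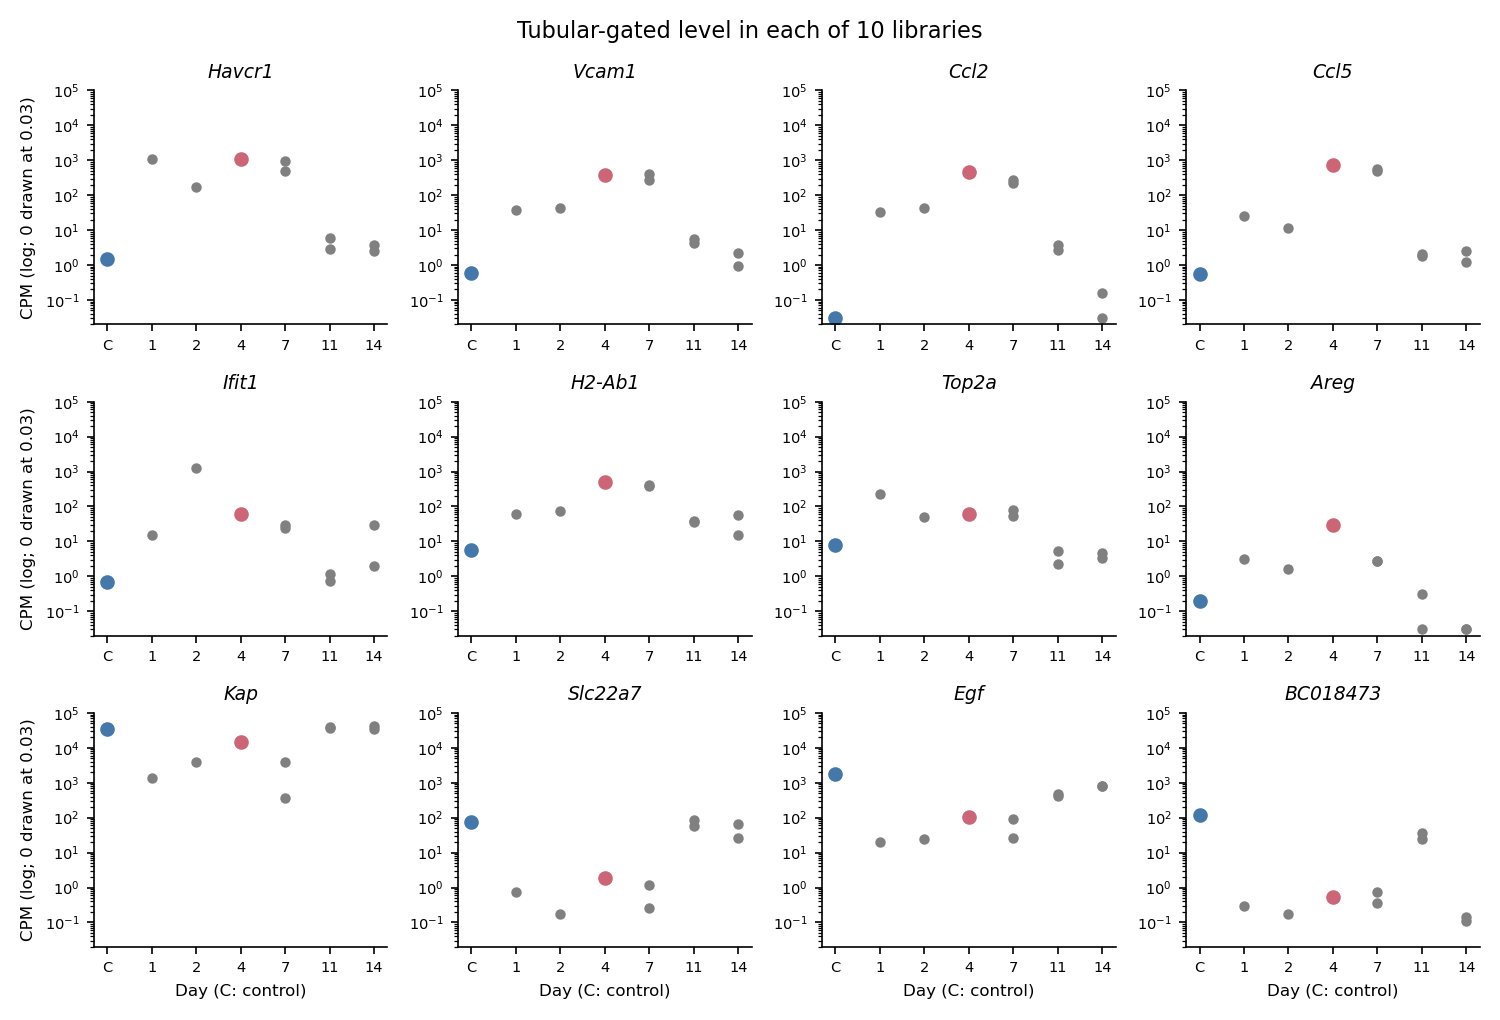
Summed tubular CPM of 12 genes in each of the 10 libraries (log axis, 0 drawn at 0.03), by day, with C for the control, in blue, and day 4 in red. Areg is at 29.5 CPM on day 4 and at most 3.15 CPM elsewhere, and BC018473 is high in the control (118 CPM) and on day 11.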

How the data were processed

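Drop-seq, a droplet method that counts the 3′ ends of transcripts with molecular identifiers (UMIs), was used on mouse kidney. The deposited tables hold whole-number counts of UMIs per gene and barcode, as the authors made them, and Bowtie2 2.2.7 and the build mm10 are named in the submitters' processing notes. The annotation and strand setting are not given in the sources used here. A barcode was used where 500 genes or more were detected and no more than 50% of its UMIs were mitochondrial. A cell class was a gate of at least 3 UMIs from at least 2 of its marker genes, with 13 gates and 90 gate genes, and shares were taken after each barcode was thinned to 800 UMIs. Counts were summed per library and class and divided by the class total to give CPM. With 1 library a side no test was run: ratios have exact conditional binomial intervals and shares Clopper-Pearson intervals. For printed folds, limits on shares of 0 and list medians, a count of 0 was set to 3 counts. In counts of genes past 2-fold, a gene with 0 UMIs on 1 side was called whatever that bound. A gene was called at 2-fold among genes with at least 20 UMIs over both sums. The text names the 12 tubular genes in each direction, and 6 in the other classes, farthest from 1 by the interval bound nearest 1, among genes reaching 100 CPM on 1 side. Mitochondrial genes, tubular gate genes and genes of the non-tubular and erythroid lists were left out for tubular barcodes, and gate genes of the class elsewhere. Members of 30 lists are named with their list. The members and lists were chosen with earlier results of these data known. The ratio script was tested on simulated data. Scrublet's caller marked 2 of 6134 and 3 of 6417 barcodes, too few to use, so leaving out the highest 5% of scores was an alternative, among 18 planned and 3 added after seeing the data. Python 3.11.15, numpy 2.4.6, pandas 2.3.3, scipy 1.17.1, scanpy 1.11.5 and matplotlib 3.10.9 were used. 1 listed gene is not reported here by name.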

Additional observations from a re-analysis of the deposited data

Results flagged for a closer look

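Several genes and lists were higher on day 4 in tubular barcodes and lower in myeloid ones, and none of these differences was tested, since each side is 1 library and the control's myeloid sum rests on 59 barcodes. The MHC class II list had a median log2 ratio of 6.47 in tubular and −2.15 in myeloid barcodes, and its invariant chain Cd74 had ratios of 101 and 0.221. The immediate early list had medians of 1.25 and −1.43. Ccl5 had ratios of 1310.0 and 0.257, Cxcl2 of 652 and 0.259, Il1b of 10.1 and 0.0345, and Gzma of 7.79 and 0.0631. The T and NK markers summed to 1072 and 108 CPM in myeloid barcodes, and their part in the Ccl5 and Gzma values was not tested. Il1b overlaps Il1bos on the other strand.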

How the results depend on the processing

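No paired analysis was possible because each side is 1 library. Counts are given as genes higher and lower on day 4. Other totals shift all ratios together. Without mitochondrial genes in the totals, 1399 tubular and 1104 proximal genes were lower. Without the 50 most abundant genes, 2044 were lower over all barcodes, 2781 higher and 1607 lower in tubular and 1385 lower in proximal ones. With TMM scaling the counts were 2684 and 2160 (all), 2512 and 1837 (tubular), 2871 and 1905 (proximal) and 621 and 1071 (endothelial). Of the named and listed genes past 2-fold, 240 of 269 tubular and 249 of 294 proximal ones stayed past it with TMM.

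A minimum of 100 UMIs, which tests fewer genes, left 733 lower (all), 535 (tubular) and 470 (proximal), 1286 and 256 (myeloid) and 263 and 176 (endothelial). A minimum of 1 UMI gave 7593 and 4455 (all), 7714 and 4390 (tubular), 8997 and 3775 (proximal), 9339 and 2191 (myeloid) and 3251 and 3774 (endothelial). At 4-fold they were 1662 and 346, 1597 and 263, 2154 and 207, 2173 and 200, and 175 and 203 in the same order. Means of per-barcode fractions gave 1834 and 1376 endothelial genes and turned Postn to 0.709 in tubular and 0.578 in proximal barcodes.

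Shares moved with the barcode limits. At most 25% mitochondrial UMIs gave day 4 to control ratios of 0.656 (proximal), 0.2999 (distal convoluted tubule), 15.99 (no segment), 9.60 (myeloid) and 1.004 (thick ascending limb). At most 10% gave 1.16, 0.0848, 5.39 (myeloid), 1.57 (thick ascending limb) and 2.298 (principal), with 1.24 for intercalated and 0.627 for T and NK barcodes, and 2318 genes higher over all barcodes. A minimum of 800 genes gave 32.2 (myeloid). Gates of 2 UMIs gave 0.766 (proximal), and gates of 5 gave 0.560 (proximal), 0.118 (distal convoluted tubule) and 5.82 (no segment). Thinning to 600 UMIs gave 0.628 (proximal) and 6.42 (no segment), and to 1200 gave 0.789 (proximal) and 25.7 (myeloid). Endothelial genes higher were 652 with gates on thinned barcodes and 477 without barcodes passing a segment gate, the latter chosen after seeing the data.

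At most 10% mitochondrial UMIs, which left 460 control barcodes, turned these ratios: endothelial S100g 1.14 and Atp6v1g3 1.13; tubular Osr2 0.716, Wnt4 0.488, Gdf15 0.779, Gadd45b 0.760, Pfkfb3 0.872, Hmox1 0.989 and Cd72 0.542; proximal Osr2 0.994, Gapdh 0.793, Serping1 0.891, Ly6c2 0.348 and Cd72 0.607. Endothelial Atp6v1g3 was 1.005 with gates on thinned barcodes, and tubular Erbb4 1.01 without distal segments. Apart from the settings whose construction is named, the cause was not tested.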
